A study of Drosophila melanogaster with 18 samples.

Results

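RNA of Drosophila ovarian somatic cells depleted of Piwi was compared directly with RNA of the same cells depleted of Maelstrom (Mael), to describe how the transposons and genes of the 2 knockdowns differ. The ratio did not use the control library. The RNA table listed 35502 rows, and a row entered the comparison when its mean over the Piwi and Mael libraries was at least 5 RPKM (reads scaled to row length and library size). This left 7143 rows, made up of 33 transposon families and 7110 RefSeq transcripts of 4237 genes. Each value below called a difference is log2(RPKM + 1) in the Piwi knockdown minus the same in the Mael knockdown, relative to the median row. A positive difference is therefore higher after loss of Piwi. Where 4 levels follow each other without names, they are the EGFP, Piwi, Mael and Brm knockdowns in that order.

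Ovarian somatic cells (OSCs) are a line of female somatic cells cultured from the fly ovary. They received RNA interference against EGFP as a control, or against piwi, mael or brm, and total RNA was collected after 2 days, with 1 library for each target. The series also holds ChIP-seq of Brm, Polybromo and Osa, which belong to the SWI/SNF chromatin remodellers, in control OSCs and in OSCs depleted of Piwi. No genotype other than the knockdown is given in the labels. Since every group is 1 library, nothing here is checked by replicates, and p-values are not given. The 95% counting intervals, computed from read pairs without a pseudocount, cover counting error only. In bulk RNA, fewer cells of a type and less RNA per cell cannot be told apart.

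Piwi is the nuclear Argonaute protein of the piRNA pathway: loaded with a piRNA, it finds nascent transposon RNA and brings about transcriptional silencing with heterochromatin. Mael is a conserved protein with an HMG box and a nuclease-like domain that is needed for this silencing and is placed downstream of Piwi. In follicle cells and OSCs the main targets are LTR retrotransposons of the gypsy superfamily, several of which carry an envelope gene.

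The targeted genes were measured first. Summed over its 2 rows, piwi stood at 81.5 RPKM in the EGFP library, 10.95 after knockdown of Piwi, 57.7 after that of Mael and 21.3 after that of Brm. The level was lowest in the library in which piwi was targeted, and the difference of the sum was -2.39 (interval -2.75 to -2.23). The 3 rows of mael lay below the floor, and their sum was 14.5, 13.3, 4.20 and 15.8 RPKM in the same order. The Mael library was the only 1 of the 4 below 10 RPKM for mael, and its difference was 1.37 (interval 1.02 to 2.17) from 216 against 72 reads. Both transcripts were thus lowest where they were targeted, and some of each remained. How far the remaining protein bears on the differences was not tested.

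Most transcripts differed little. The differences had an SD of 0.36, and 84.9% of rows lay within 0.5 of the median row. A row was called when it differed by 2-fold on this scale, that is by 1. By that rule 45 rows (0.63% of those tested) were higher in the Piwi knockdown and 27 (0.378%) were lower. They belonged to 44 and 21 genes or elements. Of the 72 calls 62.5% were higher. With the values as given, where the median row lies 0.09 above 0, 73 rows were higher and 18 lower, which is 80.2% of calls. That was the highest share among the alternatives given at the end. The lowest was 50.2%, with a floor of 1 RPKM, while calling at 1.5-fold gave 52.6% and no floor 53.9%. The counting interval excluded 0 for 38 of the 45 higher rows and for 26 of the 27 lower rows, and 10 and 2 of them had fewer than 40 reads in either library.

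**Figure D1:**
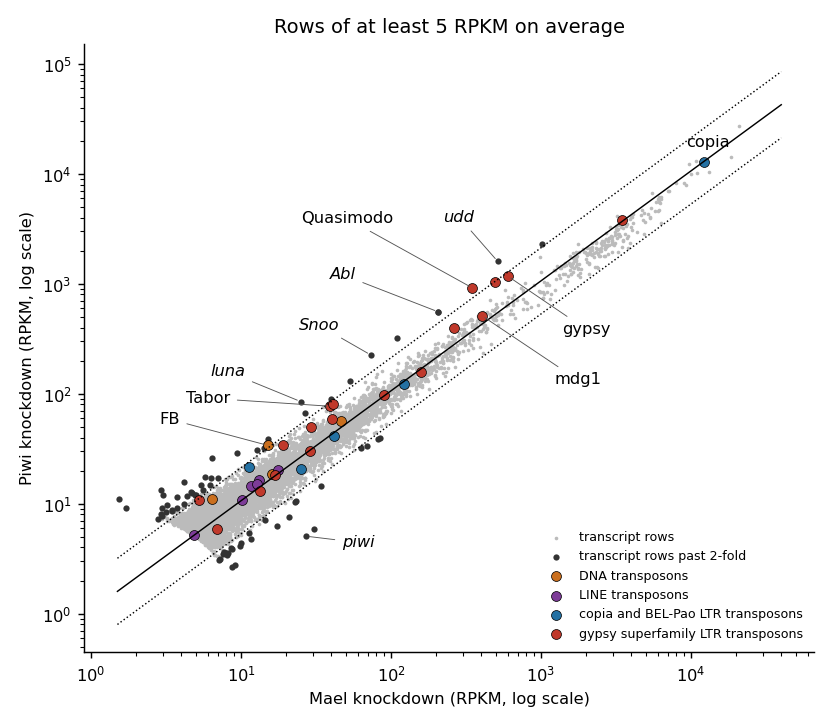
RPKM in the Mael knockdown (x axis) against the Piwi knockdown (y axis), both on log scales, for the 7143 rows of at least 5 RPKM on average. The solid line is the median row, the dotted lines lie a factor of 2 to either side on the RPKM scale, and Quasimodo, udd, Snoo, Abl and luna lie above them while piwi lies below.

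Most tested transposons of the gypsy superfamily lay above the median row. Of 33 transposon rows, 2 were called higher (6.06%, against 0.63% of all rows) and none lower. The median of the superfamily was 0.48 over 18 tested elements, of which 14 lay above the median row and 9 lay at or above 0.5. The median over all 7143 rows is 0 by construction, with quartiles of -0.23 and 0.22. The 6 LINE elements, retrotransposons without long terminal repeats, had a median of 0.12, the 4 DNA transposons 0.40, and the 5 copia and BEL-Pao elements -0.08. The order of the first 2 classes depends on the floor: with 1 RPKM in place of 5, the gypsy superfamily had a median of 0.20 and the DNA transposons 0.33. The other transposon rows of the species, 88 of 121, did not reach the floor, and 50 of them were under 1 RPKM in both libraries.

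Quasimodo, a gypsy-superfamily retrotransposon, had the largest difference of any transposon. It stood at 40.5 RPKM with EGFP targeted, 918 with Piwi, 349 with Mael and 44.9 with Brm. Both knockdowns of silencing factors were far above the control, and the Piwi library was 2.63 times the Mael library. The difference was 1.30 (interval 1.27 to 1.34).

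The element blood lay just under the 2-fold mark, at 0.98 (interval 0.96 to 1.01). Its levels were 250 RPKM in the control, 1043 in the Piwi, 495 in the Mael and 41.9 in the Brm library. The element gypsy, which gives the superfamily its name and encodes an envelope protein, stood at 330, 1172, 602 and 70.8 RPKM, with a difference of 0.87 (interval 0.85 to 0.89). Both elements had the same order of libraries, with Brm lowest, then the control, Mael and Piwi.

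Less abundant gypsy-superfamily elements had that order as well. Tabor stood at 7.24, 77.0, 39.4 and 1.87 RPKM, a difference of 0.86. Stalker2 stood at 23.6, 80.1, 41.3 and 5.44 RPKM, a difference of 0.85. Dm412 stood at 1.57, 10.7, 5.22 and 0.22 RPKM, a difference of 0.82. All 3 were highest in the Piwi library, but none passed the mark. Dm17.6 and Transpac followed with differences of 0.71 and 0.66.

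The element mdg1 had the smallest difference of the gypsy-superfamily elements that stood at 2 or more times the control after Piwi knockdown. Its levels were 16.01 RPKM in the control, 513 in the Piwi, 404 in the Mael and 4.84 in the Brm library. Both knockdowns stood far above the control and close to each other, with a difference of 0.26 (interval 0.22 to 0.29). Dm297 took a middle place, at 81.1, 397, 263 and 33.1 RPKM and a difference of 0.50 (interval 0.47 to 0.55). The counting intervals of mdg1, Dm297 and Quasimodo do not overlap.

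The gain over the EGFP library in the Mael knockdown can be set against the gain in the Piwi knockdown, as a share of RPKM. Both gains share the control library. For mdg1 the Mael gain was 78.0% of the Piwi gain, for mariner2, a DNA transposon, 68.5%, and for Dm297 57.5%. It was 46.7% for mdg3 and 46.1% for Tabor. For Dm412 it was 39.9%, for Quasimodo 35.2%, for gypsy 32.4%, for Stalker2 31.3% and for blood 30.8%. Dm17.6 and Transpac had the smallest shares, 27.2% and 18.3%. These are the 12 elements that stood at 2 or more times the control after Piwi knockdown, and their shares differ widely.

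**Figure D2:**
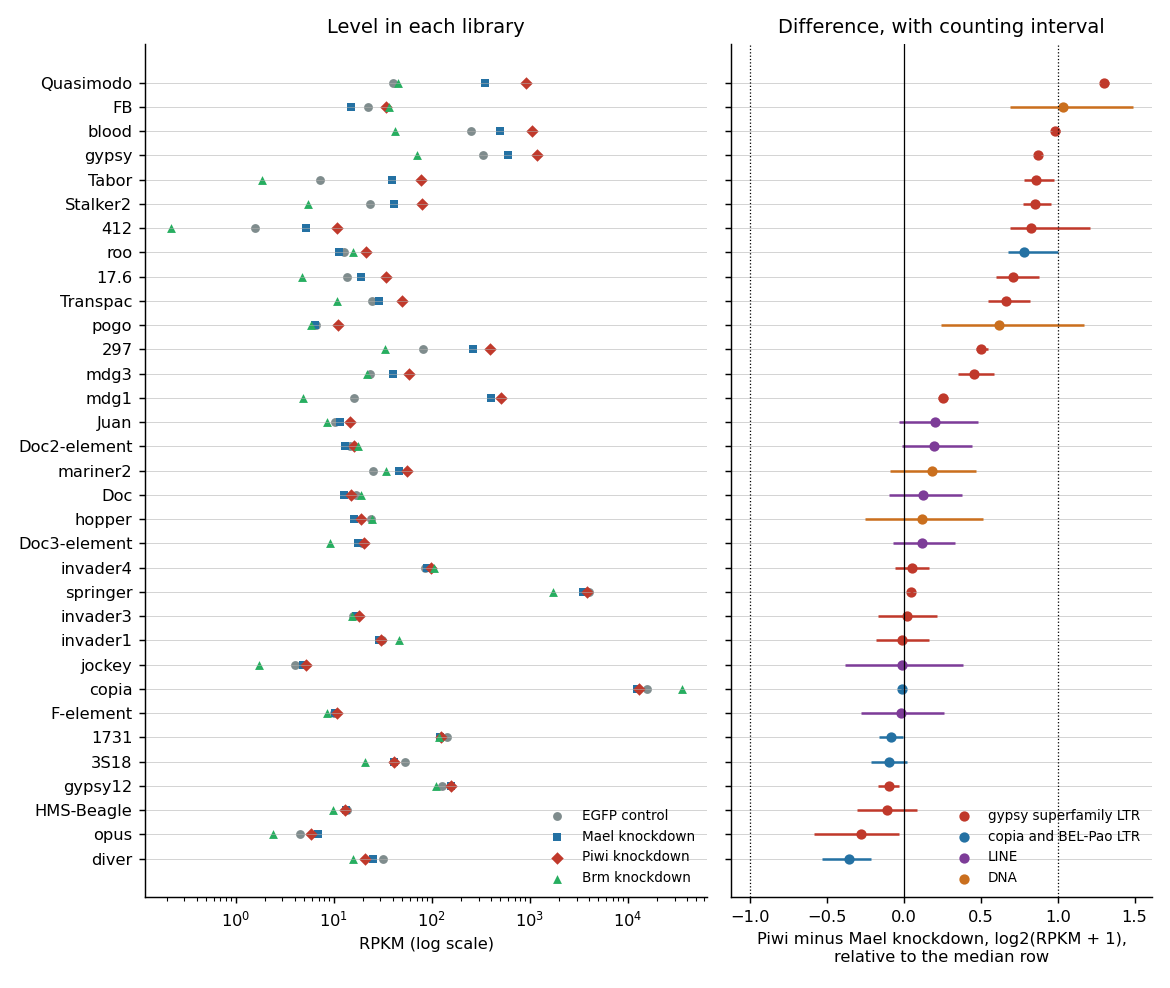
Left, RPKM on a log scale of the 33 tested transposon families in the EGFP, Mael, Piwi and Brm knockdown libraries. Right, the difference of Piwi minus Mael with its 95% counting interval, coloured by class, with dotted lines at the 2-fold mark; Quasimodo is at the top at 1.30 and diver at the bottom at -0.36.

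The elements can be grouped by the order of the libraries. In 17 of the 33 the control was lowest of the 3 libraries and Piwi was highest with Mael between. Whichever knockdown was higher, 22.2% of all tested rows had the control below both. That share also covers rows with Mael above Piwi, and the share of the order of the 17 alone was not counted. Of the 17, Juan, mariner2, invader4, invader3, jockey and F-element had counting intervals that include 0. Relative to the median row jockey and F-element lay slightly below, at -0.015 and -0.016. The 17 include all 9 tested elements on a list of families known to be Piwi-sensitive in OSCs, whose median difference was 0.85. That list overlaps the gypsy superfamily and was drawn up with earlier results of these data known, so it is no independent evidence of the direction. In 9 elements the control was above both knockdowns, which held for 41.5% of all tested rows. In 2, gypsy12 and opus, Mael was above Piwi and both were above the control.

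In 5 elements the Mael library was at or below the control while the Piwi library was above it. Of all tested rows, 36.3% had the control between the knockdowns, whichever of them was higher. FB, the foldback DNA transposon, was called higher with a difference of 1.04 (interval 0.69 to 1.49), from 22.1 RPKM in the control, 33.99 in the Piwi, 15.04 in the Mael and 36.6 in the Brm library. The Mael library was the low one here, and Piwi and Brm were close to each other. The BEL-Pao element roo stood at 12.7, 21.6, 11.3 and 15.8 RPKM, a difference of 0.78 (interval 0.68 to 1.002). The DNA transposon pogo stood at 6.67, 11.1, 6.45 and 5.91 RPKM, a difference of 0.62. The LINE elements Doc2-element and Doc3-element differed by 0.20 and 0.12, with intervals that include 0.

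The most abundant transposons did not separate the knockdowns. The element copia took 6.64% of all reads in the Piwi and 6.30% in the Mael library, and its difference was -0.01. The gypsy-superfamily element springer stood at 4016 RPKM in the control, 3801 in the Piwi, 3453 in the Mael and 1742 in the Brm library, a difference of 0.05. Among tested elements diver, of the BEL-Pao group, lay lowest, at 31.7, 20.6, 25.1 and 15.9 RPKM and a difference of -0.36. Of the 32 elements with a mean of 1 to 5 RPKM, below the floor, 23 lay above the median row.

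The order of libraries seen for gypsy and blood was found in 14 of the 33 tested transposons and in 8.69% of all tested rows. Among the 45 higher rows 8 had it: those of udd, Abl, Snoo, luna and CG10431, and the 2 rows of a noncoding RNA without a symbol. The first 4 genes had larger differences than the others. They are udd, which encodes a factor of RNA polymerase I transcription, Abl, a non-receptor tyrosine kinase, Snoo, a Ski/Sno-type corepressor of TGF-beta signalling, and luna, a zinc-finger transcription factor of the Krüppel-like family. Of the 6 protein-coding genes with the largest differences among rows with at least 40 reads they were 4, and none had fewer than 2004 reads in either knockdown.

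The row of udd (chromosome 2R, 8106385 to 8107373 in the Release 6 assembly) stood at 284 RPKM in the control, 1602 in the Piwi, 514 in the Mael and 118 in the Brm library. Its difference was 1.55 (interval 1.48 to 1.62). The main row of Abl (chromosome 3L, 16615866 to 16647882) stood at 88.4, 560, 206 and 36.8 RPKM, with a difference of 1.35 (interval 1.32 to 1.38), and its other tested row differed by 1.34. Abl has 10 rows, and those not tested held at most 0.14 RPKM in either knockdown. In both genes the Brm library was lowest and the Piwi library stood well clear of the other 3.

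Snoo (chromosome 2L, 7891187 to 7984196) stood at 36.4, 225, 73.4 and 17.2 RPKM, a difference of 1.52 (interval 1.46 to 1.60). The level of luna (chromosome 2R, 10977956 to 11116378) was 16.1, 85.0, 24.98 and 6.67 RPKM, a difference of 1.64 (interval 1.57 to 1.78). These are values of the tested row of each gene. The other rows of Snoo (4 in all) held at most 0.83 RPKM in either knockdown. Those of luna (3 in all) held at most 0.38 RPKM. The Mael gain over the control was 12.9% of the Piwi gain for luna, 17.4% for udd, 19.6% for Snoo and 24.97% for Abl. Of the 12 elements given above, Transpac has a share within this range and the others have larger ones.

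These rows were also high in input DNA. In the control input of the Brm and Polybromo ChIP the median tested transcript row had 2.90 RPKM and the 99th percentile was 11.1, while udd had 60.5, Abl 74.2, Snoo 13.4 and luna 6.20. The first 3 thus lay above the 99th percentile and luna below it. Whether the RNA reads counted in these rows come from the genes alone or also from repeated sequence was not tested, so each value is that of the row that carries the gene name. ChIP was not done in Mael-depleted OSCs, so these values compare the control with the Piwi knockdown only. In the Osa ChIP, udd stood at 188 RPKM in the control and 755 in the Piwi knockdown, with inputs of 101 and 277. For Abl the same ChIP gave 84.0 and 500 RPKM over inputs of 36.1 and 102, and for luna 15.3 and 57.8 over 5.25 and 9.97. The Osa inputs were higher in the Piwi knockdown as well. The inputs of the Brm and Polybromo ChIP were not higher throughout: control and Piwi knockdown stood at 74.2 and 72.3 RPKM for Abl, 13.4 and 12.3 for Snoo, 60.5 and 77.4 for udd and 6.20 and 9.27 for luna. The part of the inputs in the RNA values was not tested. ChIP over input for Osa was 2.33 and 4.88 at Abl, 2.92 and 5.80 at luna, 1.87 and 2.73 at udd, and 2.74 and 3.07 at Snoo. The median tested transcript row had 2.54 RPKM in the control Osa ChIP over an input of 4.90. In the Piwi knockdown it had 3.21 over 3.43, so the median ChIP rose relative to the median input as well. The ratios at these genes are not corrected for that rise. The Polybromo ChIP over input was 0.88 and 1.17 at Abl, 1.58 and 1.47 at luna, 1.90 and 2.55 at udd, and 1.53 and 2.42 at Snoo.

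Among transposons these ChIP values differed widely. They compare the control with the Piwi knockdown, so the RNA of those 2 libraries is the like contrast, not the difference of Piwi minus Mael. At Quasimodo, the Polybromo ChIP over input was 2.49 in the control and 21.9 in the Piwi knockdown, and that of Osa 3.46 and 11.2. The RNA of Quasimodo stood at 40.5 RPKM in the control and 918 in the Piwi knockdown. At blood, with RNA of 250 and 1043 RPKM, Polybromo stood at 0.78 and 0.90 and Osa at 2.16 and 1.83. Tabor had 0.79 and 0.80 for Polybromo and 2.29 and 1.60 for Osa, and gypsy 0.91 and 1.84 for Polybromo and 0.96 and 1.21 for Osa. At mdg1 the values were 0.83 and 0.81 for Polybromo and 1.48 and 1.92 for Osa. The Osa ratios of elements are likewise not corrected for the rise of the median transcript row given above.

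Among all 45 higher rows, the EGFP level lay below both knockdowns in 13, between them in 30 and above both in 2. Of all tested rows, 22.2% had the control below both, 36.3% between them and 41.5% above both. The 13 were, besides Quasimodo, udd, Snoo, luna and the pair of Abl rows, lncRNA:CR43264, 2 rows of a noncoding RNA without a symbol, Fas2, her, CG10431 and lncRNA:CR45417; of these, Fas2, her and CG10431 are named after their values were seen. Fas2 encodes a neural cell adhesion molecule, and its called row stood at 1.46 RPKM in the control, 8.001 in the Piwi, 2.93 in the Mael and 7.06 in the Brm library. The level of lncRNA:CR43264 (chromosome X) was 108, 323, 110 and 495 RPKM, a difference of 1.46 (interval 1.21 to 1.74). For that RNA the Mael library and the control were alike, and the Piwi and Brm libraries were high.

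In other higher calls the Mael library was the low one. The gene cer (crammer, a cysteine protease inhibitor) stood at 132 RPKM in the control, 131 in the Piwi, 52.96 in the Mael and 137 in the Brm library. All libraries but Mael lay within a few RPKM of each other, and the difference was 1.20 (interval 0.91 to 1.53). Over the 45 higher rows the control lay nearer to the Mael library in 33 and nearer to the Piwi library in 12, and 45.9% of all tested rows had the control nearer to Mael.

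Higher calls also included an abundant noncoding RNA, lncRNA:CR40469, named after its values were seen. It stood at 1523 RPKM in the control, 2321 in the Piwi, 1019 in the Mael and 1892 in the Brm library, a difference of 1.10 (interval 0.99 to 1.21) from 4453 and 2072 reads in the Piwi and Mael libraries. Here too the Mael library was the lowest of the 4. CG43248 had the largest difference, 2.17, from 75 reads in the Piwi and 11 in the Mael library, but its other tested row differed by 0.77. Obp44a, an odorant-binding protein, stood at 6.31, 11.6, 3.72 and 3.44 RPKM, a difference of 1.33. Datp, lncRNA:CR43900, lncRNA:CR44042 and UK114 differed by 1.15 to 1.60, and UK114 by 0.71 when its 2 rows were summed. The gene sd, which encodes the TEAD transcription factor that Yorkie binds, stood at 4.18, 8.70, 3.48 and 2.08 RPKM in its 1 tested row, a difference of 1.03. Summed over all 20 rows of sd the difference was 0.64, so the call rests on that row.

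Noncoding RNAs made up a good part of the higher rows. Of 182 noncoding rows tested, 19 were higher (10.4%, against 0.63% of all rows) and 2 were lower (1.1%). Many of these calls rest on few reads. All 7 higher rows whose counting interval includes 0 were noncoding, as were most of the 10 higher rows with fewer than 40 reads. Of the 45 higher rows, 8 were small nuclear or nucleolar RNAs, which guide splicing and RNA modification. Of 29 small nuclear and nucleolar RNA genes tested, 7 were higher and 1 was lower, with a median of 0.42; over all genes, counted by 1 row each, 0.817% were higher and 0.35% lower. The U2 snRNA gene snRNA:U2:38ABb stood at 40.0045, 66.8, 26.9 and 24.6 RPKM, a difference of 1.19 (interval 0.52 to 1.97), while snRNA:U5:63BC rested on 10 and 2 reads and its interval ran from -0.84 to 7.88. Noncoding rows as a whole had an SD of 0.60, against 0.35 for coding rows. Of 10 equal bins of transcript rows by length, the shortest held 22 of the higher calls. The part of length in these calls was not tested.

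**Figure D3:**
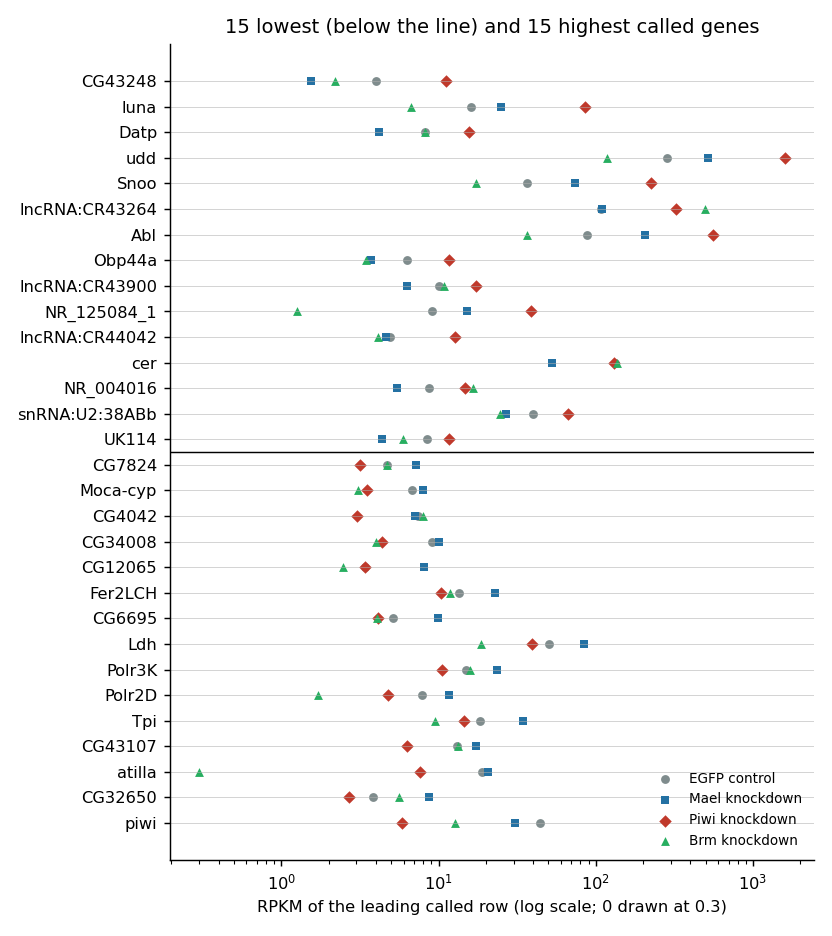
RPKM on a log scale in each of the 4 RNA libraries for the 15 genes with the largest differences in each direction among called rows with at least 40 reads in 1 of the 2 knockdowns, above the line those higher and below it those lower in the Piwi knockdown. For udd, Abl, Snoo and luna the Brm library is lowest and the Piwi library highest, and for piwi the Piwi library is lowest.

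After piwi itself, the lower calls included Ldh and the glycolytic enzyme Tpi. Ldh, lactate dehydrogenase, summed over 4 rows, stood at 181 RPKM in the control, 155 in the Piwi, 313 in the Mael and 73.7 in the Brm library. The Mael library was the high one, and the difference of the sum was -1.10 (interval -1.21 to -0.995). Tpi, triose phosphate isomerase, summed over 3 rows, stood at 57.5, 45.9, 91.6 and 27.3 RPKM, a difference of -1.07. For both genes the Mael library was above all the others.

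Glycolytic enzymes as a list lay below the median row. The list also holds Ldh and the pyruvate dehydrogenase genes Pdha and Pdhb, which act after glycolysis and differed by -1.17, -0.24 and -0.49. Of 14 tested, 2 were called lower (Ldh and Tpi), none higher, and 1, Eno, lay above the median row. The median of the list was -0.45. Pgk, phosphoglycerate kinase, stood at 12.6, 9.68, 15.9 and 5.26 RPKM, a difference of -0.75, and PyK, pyruvate kinase, at 28.4, 29.3, 37.9 and 12.7 RPKM, a difference of -0.45. Among the EGFP, Piwi and Mael libraries, Mael was highest for 10 of the 14 enzymes, against 22.5% of all tested rows.

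Other lower genes had various roles. The GPI-anchored protein gene atilla stood at 18.9, 7.65, 20.8 and 0 RPKM in its called row, a difference of -1.42 (interval -2.26 to -0.84). In that row the Piwi library was low and the Mael library was near the control. The other tested row of atilla stood at 14.9, 10.97, 20.5 and 0.49 RPKM, a difference of -0.93, and was not called. There the Piwi library was below the control and the Mael library above it, so the pattern rests on the called row. The subunits Polr2D of RNA polymerase II and Polr3K of RNA polymerase III differed by -1.22 and -1.18, from 31 against 80 reads and 117 against 277 reads. Fer2LCH, the ferritin light chain, was called in 1 row at -1.16, but its other tested rows reached -0.09. Mtpbeta, the beta subunit of the trifunctional protein of fatty acid oxidation, stood at 38.4, 32.3, 63.1 and 27.6 RPKM, a difference of -1.03. It was the only 1 called of 14 tested genes of mitochondrial fatty acid and amino acid catabolism, whose median was -0.0030 with 6 above the median row. CPT2, carnitine palmitoyltransferase, lay just outside the mark at -0.94, while Mtpalpha, the alpha subunit, named after its value was seen, stood at -0.02 and Mccc1, a carboxylase subunit of leucine breakdown, at 0.54. The EGFP level lay between the 2 knockdowns for 22 of the 27 lower rows, against 36.3% of all tested rows. It was nearer to Mael in 12 and nearer to Piwi in 15.

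Rows on either side of the mark differed little. Just inside were Galphaq at 1.002 and CG43191 at 1.01, and just outside were lncRNA:CR44804 at 0.996 and CG40228 at 0.99. At the lower end RabGGTb at -1.01 was just inside and CG8372 at -0.98 just outside.

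Cytoplasmic ribosomal protein genes lay below the median row without passing the mark. Of 84 tested, 76 lay below the median row, with a median of -0.28, and none was called. RpL4 stood at 2227 RPKM in the control, 2107 in the Piwi, 3820 in the Mael and 2136 in the Brm library, a difference of -0.95. RpL13A stood at 3628, 3543, 6322 and 3583 RPKM, a difference of -0.93 (interval -0.96 to -0.89). For both genes the other 3 libraries were close together and the Mael library was high. RpL35A and RpL23A had the same pattern, with differences of -0.88 and -0.86. Ribosomal protein genes held 43.6% of all reads in the Mael library and 38.3% in the Piwi library, with 39.4% in the control and 41.1% in the Brm knockdown.

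Among ribosomal protein genes the longer rows differed more. Those of at least 800 bases had a median of -0.43 over 19 genes, all below the median row, and those under 600 bases a median of -0.19 over 29 genes, 6 of them above it. Summed, the genes under 600 bases had 151347 RPKM in the Piwi and 149422 in the Mael library, while those of at least 800 bases had 40203 and 51207. Across all transcript rows the direction with length was the opposite: the longest of 10 equal bins had a median of 0.15. The 338 transcripts of at least 4000 bases had a median of 0.19, 6 higher calls and no lower one. The gypsy-superfamily elements are that long as well, so length moves with their difference, and each row was therefore also set against the median transcript of its own bin of length. On that scale Quasimodo stood at 1.15, FB at 1.10, blood at 0.83 and mdg1 at 0.10, and Quasimodo and FB were the only 2 elements past the mark. The median of the gypsy superfamily was then 0.32, below the 0.42 of the 4 DNA transposons, and that of all transposon rows 0.05 in place of 0.18.

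**Figure D4:**
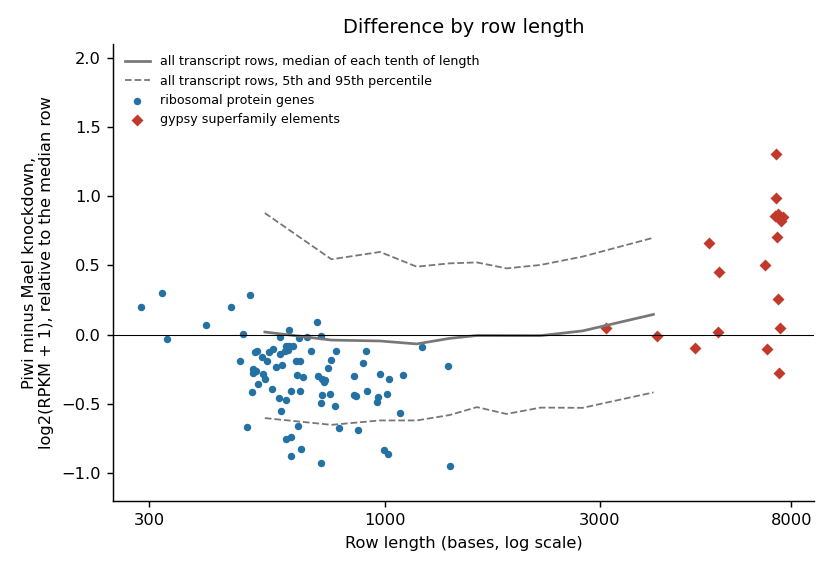
Difference of Piwi minus Mael (y axis) against row length on a log scale (x axis) for 84 ribosomal protein genes and 18 gypsy-superfamily elements, with the median and the 5th and 95th percentiles of all transcript rows in 10 bins of length. The ribosomal protein genes lie mostly below 0, while the gypsy-superfamily elements spread from -0.28 to 1.30.

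Several gene lists lay above the median row with few or no members called. The 18 tested protein-coding genes of chromosome 4, a small chromosome rich in heterochromatin, had a median of 0.37, and 16 lay above the median row with none called. Rnf11 stood at 9.92 RPKM in the control, 39.7 in the Piwi, 26.2 in the Mael and 7.47 in the Brm library, a difference of 0.49, and Mpv17 at 7.94, 10.7, 4.75 and 6.58 RPKM, a difference of 0.94. Counted over all tested transcript rows in place of 1 row a gene, chromosome 4 had a median of 0.30. The other chromosome arms, counted in that way, had medians from -0.02 to 0.02. A list of genes inside pericentromeric heterochromatin had a median of 0.08 over 8 tested, with 6 above the median row and none called.

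Of the signalling pathway lists, some lay above the median row and others near or below it. The JAK/STAT list had a median of 0.33 with 6 of 6 above the median row, and Stat92E, its transcription factor, stood at 24.7, 39.9, 21.6 and 32.9 RPKM, a difference of 0.77. Of the EGF receptor list, 6 of 7 lay above, with a median of 0.30, and sty (sprouty), a feedback inhibitor, differed by 0.75. Of the Notch list, 4 of 5 lay above, with a median of 0.58, and its target E(spl)m3-HLH stood at 80.4, 123, 74.3 and 73.7 RPKM, a difference of 0.63. No member of these 3 lists passed the mark. The 6 Hedgehog genes had a median of 0.15, with hh, the ligand, at -0.53, and the 4 BMP genes 0.13, with Snoo called higher. Of the 5 Hippo genes, with a median of 0.23, sd was called higher, while yki, the coactivator, stood at -0.43 and Mer, an upstream regulator, at -0.57. The 4 ecdysone response genes had a median of -0.17, with Ldh called lower, and the 5 Toll and immune genes -0.09 with none called. With a floor of 1 RPKM the medians were 0.18 for JAK/STAT, 0.26 for the EGF receptor and 0.07 for Notch genes, so that of the Notch list rests on the 5 more abundant members.

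The piRNA pathway beyond the targeted genes differed little. Of 13 nuclear silencing factors, piwi was called and no other, with a median of -0.04. The histone methyltransferase gene egg stood at 11.1, 7.76, 11.9 and 5.38 RPKM, a difference of -0.65, and arx (asterix), a zinc-finger partner of Piwi, differed by -0.73. Su(var)2-10, a SUMO ligase, differed by 0.53. The 15 piRNA biogenesis factors had a median of 0.12, with none called. SWI/SNF subunits, to which Brm belongs, had a median of -0.02 over 11 genes, with none called.

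**Figure D5:**
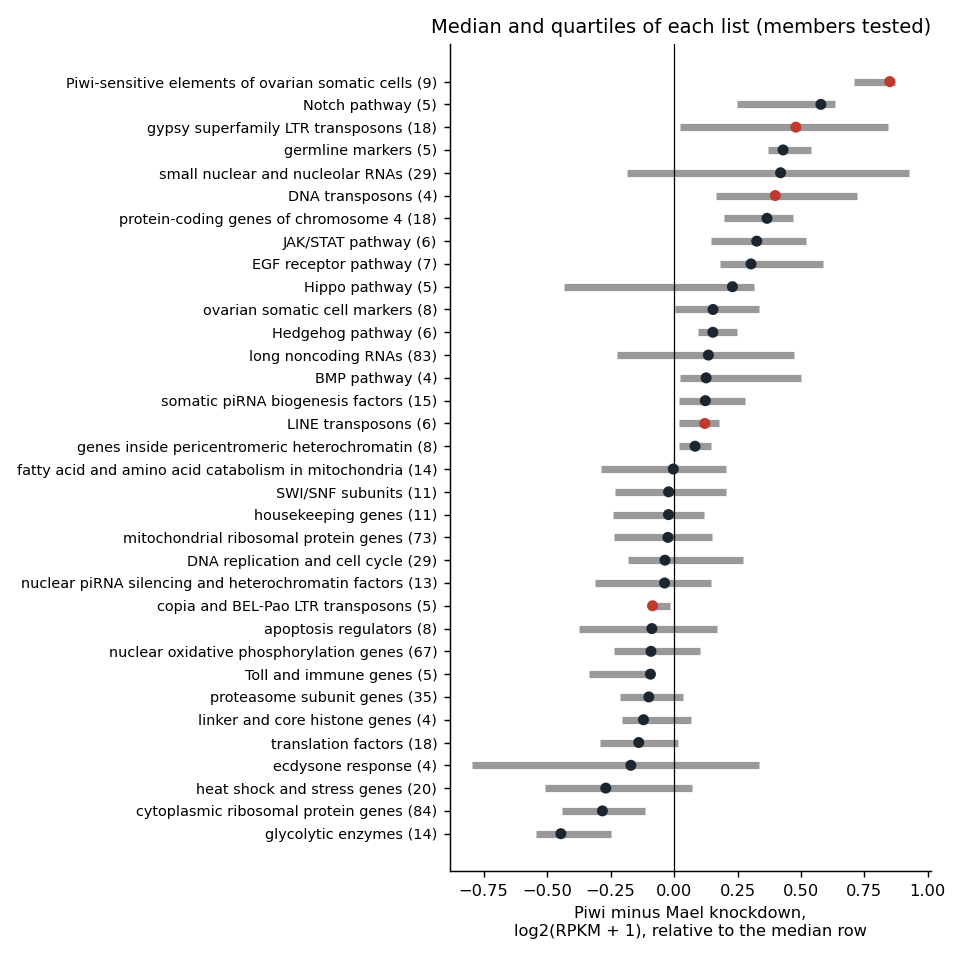
Median (point) and quartiles (bar) of the difference of Piwi minus Mael for each list with at least 4 tested members, with the number tested in brackets and lists of transposons in red. The Piwi-sensitive elements have the highest median, 0.85, followed by Notch pathway genes and gypsy-superfamily elements at 0.58 and 0.48, and glycolytic enzymes and ribosomal protein genes the lowest, -0.45 and -0.28.

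Some facts of the libraries stand beside these results. Reads totalled 8965485 in the Piwi and 9498401 in the Mael library, close to the 8983374 of the control, and 4865534 in the Brm library. Transposon rows took 13.1% of reads in the Piwi, 10.9% in the Mael, 11.9% in the control and 19.9% in the Brm library. The element copia alone took 6.64%, 6.30%, 7.96% and 18.1% in that order, so most of the share in the Brm library is copia. Of 7 markers of ovarian somatic cells, 6 reached 1 RPKM in either knockdown, among them tj (traffic jam), with 133 RPKM in the Piwi and 85.9 in the Mael library summed over its rows; hth was at 0 in both. The 6 germline markers chosen here summed to 4.27 and 3.06 RPKM, with aub and vas at 0 in the Piwi and under 0.1 in the Mael library. Other genes of the germline list were more abundant, so the low sum is that of the markers chosen. In the Piwi and Mael libraries krimp stood at 57.8 and 40.1 RPKM, pgc at 45.4 and 22.9, and me31B at 45.3 and 32.7. There grk stood at 28.6 and 18.1 RPKM and spn-E at 9.70 and 9.92. Markers of hemocytes and fat body summed to 2.00 and 1.76, those of neurons and glia to 9.95 and 13.9, mostly from wrapper, and those of muscle to 109 and 134, mostly from Act57B. The part of these markers in the differences was not tested.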

How the data were processed

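RNA of OSCs was sequenced from TruSeq libraries, per the labels' protocols. The authors deposited RPKM values per RefSeq transcript and transposon family, made with Bowtie2 2.2.4 on the dm6 build, per the submitters' processing notes. How they assigned reads of several isoforms or repeat copies is not given in the sources used here. Of the value columns, 4 matched no sample and were not used, and 4 ovary libraries were not analysed here. The 52 transposon rows of other species were left out.

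Whole reads were recovered by finding each library's total and, for each row, the shortest length from 20 to 80000 bases that made its values whole within 0.01. Most rows had even reads, so a fragment was taken as 2 reads, and intervals (95%, Clopper-Pearson) for fragment ratios were set relative to the median row. The steps were tested on simulated reads. A pseudocount of 1 understates differences of low rows. A row was compared at a mean of at least 5 RPKM and called at 2-fold. Lists use 1 row a gene, that with the highest mean.

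Symbols and chromosomes came from the RefSeq Release 6 table, in which 34925 transcript rows matched and 404 did not. Genes named are the targeted genes, the 15 largest calls each way with at least 40 reads in either library, every called and up to 6 abundant transposons of a class, up to 4 members of a list, and those next to the threshold; other members of a list are given where its values are described. Rows, lists and members were chosen with earlier results of these data known. Elements named by a number carry the prefix Dm in the text. Python 3.11.15, numpy 2.4.6, pandas 2.3.3 and scipy 1.17.1 were used.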

Additional observations from a re-analysis of the deposited data

How the results depend on the processing

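No paired analysis was possible because each group holds 1 library, and leaving out a replicate was not possible for the same reason. The main counts were 45 higher and 27 lower rows, with 2 transposons higher and none lower. With a pseudocount of 0.1 there were 71 higher rows, and with 5 there were 18 higher and 8 lower, with 1 transposon higher. A floor of 1 RPKM gave 123 and 122, a floor of 10 RPKM gave 24 and 12, and no floor gave 213 and 182, with 4 transposons higher and 1 lower. Values as given gave 73 higher rows. Calling at 1.5-fold gave 364 and 328, with 11 transposons higher. Requiring the counting interval to exclude 1.5-fold as well gave 23 and 17. The other counts stayed within 1.5 times under the trimmed mean, the median row of like mean RPKM (10 bins), the summed rows of a gene and the median row of like length (10 bins), the last chosen after seeing the data. No called gene or element that the text names changed sign under any alternative run. Over these alternatives Quasimodo ranged from 1.15 to 1.39, udd from 1.54 to 1.64 and mdg1 from 0.10 to 0.34. FB was at 0.89 with a pseudocount of 5, and Fer2LCH at -0.30 with its rows summed. Depth limits rows of few reads: 7 of the higher rows and 1 of the lower ones had counting intervals that include 0.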

Other observations

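Genes of protein folding, synthesis and turnover lay slightly below the median row, with no member called. The 20 heat shock and stress genes had a median difference of -0.27, and 6 lay above the median row. Xbp1, the transcription factor of the unfolded protein response, stood at 24.8 RPKM in the control, 24.7 in the Piwi, 39.3 in the Mael and 24.2 in the Brm library, a difference of -0.74. The 18 translation factors had a median of -0.14, the 35 proteasome genes -0.10, and the 67 nuclear genes of oxidative phosphorylation -0.09. Of the last, UQCR-C2, a complex III core subunit, stood at 65.7, 52.6, 92.8 and 44.3 RPKM, a difference of -0.90 (interval -1.10 to -0.72). In both genes the Mael library was the highest of the 4.

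The list for replication and cell division had a median of -0.04 over 29 genes, and mitochondrial ribosomal protein genes -0.02 over 73, with none called in either list. Of 5 tested germline markers, 4 lay above the median row. Among them pgc, a repressor of transcription in pole cells, stood at 28.6, 45.4, 22.9 and 14.4 RPKM. Its difference was 0.87 (interval 0.47 to 1.34).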
